A study of Rattus norvegicus with 42 samples.

Results

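The neurotrophin genes of the neonatal hippocampus were examined in the rat pups of a study of early life exposure to antiseizure medication. The members were chosen by gene symbol: brain-derived neurotrophic factor (Bdnf), neurotrophin 3 (Ntf3), the receptors Ntrk2, Ntrk3 and Ngfr, and sortilin (Sort1). All 6 symbols were among the 14304 gene symbols of the deposited count table, with 21 of its 15516 transcripts. All 6 genes passed the filter on low counts when their transcripts were summed, and 17 of the 21 transcripts passed it singly.

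Male Sprague Dawley pups received 1 intraperitoneal injection on postnatal day 7, of saline (VEH), of phenobarbital at 75 mg/kg (PB) or of levetiracetam at 200 mg/kg (LEV). Phenobarbital enhances GABA-A receptor currents, and levetiracetam binds the synaptic vesicle protein SV2A. The hippocampus was taken 72 hours later, on postnatal day 10, and gave 1 library per animal. The pups had not been made to seize, so the groups show drug exposure of a healthy brain, at 1 dose of each drug and 1 time. Analysed here were 13 VEH, 14 PB and 14 LEV animals, and 1 VEH animal that its label marks as excluded was kept out. The study left out 1 control sample because its average coverage was above, and its genomic coverage below, the range of the other samples. The labels carry 2 forms of code, for animals 1 to 6 and for animals 7 to 14 of each group, called series here and used as the batch. Total estimated counts ran from 9499492 to 14488134 per animal. Markers of the dissected region were present in every animal, with 887 to 1381 CPM (counts scaled to library size) of Slc17a7, the vesicular glutamate transporter of principal neurons, and 43.8 to 102 CPM of Prox1, a marker of dentate granule cells.

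Neurotrophins are secreted proteins that are made as longer precursors and cut by proteases. The mature forms signal through Trk receptor kinases: BDNF mainly through TrkB, the product of Ntrk2, and neurotrophin 3 mainly through TrkC, the product of Ntrk3. The p75 receptor, the product of Ngfr, binds all neurotrophins and, together with sortilin, their uncut precursors. In the developing hippocampus BDNF is known for activity-dependent release and for its part in the maturation of inhibitory synapses.

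Bdnf has several promoters, each giving its own first exon spliced to a shared coding exon. In the table its 10 transcripts lay on chromosome 3 (rn6, 100768637 to 100819215, forward strand) and began at 8 positions over 20225 bases. Ntf3 had 4 transcripts on chromosome 4 (158636883 to 158705887), Ntrk2 had 2 on chromosome 17 (5934690 to 6244628) and Ntrk3 had 3 on chromosome 1 (139890539 to 140262504). Ngfr (chromosome 10, 83389841 to 83408062) and Sort1 (chromosome 2, 211078334 to 211156313) had 1 transcript each.

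The 250 bases before a start are shown for the Bdnf starts at 1202 and 18225 bases after the first one, which carried much of the gene's counts, and for Sort1, the only member to pass a treatment comparison. They are from RefSeq on build GRCr8, whose coordinates differ from those of rn6, and are written 5′ to 3′ on the forward strand. The Bdnf windows are chr3:116620585-116620834 and chr3:116637608-116637857, and the Sort1 window is chr2:198612245-198612494. Capitals mark TGACG or its reverse complement CGTCA, the half-site bound by the activity-regulated factor CREB.
Bdnf start at 1202: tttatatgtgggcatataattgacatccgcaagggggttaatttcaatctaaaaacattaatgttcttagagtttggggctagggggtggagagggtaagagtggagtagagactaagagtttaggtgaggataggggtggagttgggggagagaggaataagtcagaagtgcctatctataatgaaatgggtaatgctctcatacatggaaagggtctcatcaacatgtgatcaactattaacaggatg
Bdnf start at 18225: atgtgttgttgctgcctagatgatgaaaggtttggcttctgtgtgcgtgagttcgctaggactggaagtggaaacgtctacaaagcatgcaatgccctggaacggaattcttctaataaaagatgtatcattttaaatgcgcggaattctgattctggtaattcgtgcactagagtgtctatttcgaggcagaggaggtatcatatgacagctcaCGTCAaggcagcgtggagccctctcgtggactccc
Sort1: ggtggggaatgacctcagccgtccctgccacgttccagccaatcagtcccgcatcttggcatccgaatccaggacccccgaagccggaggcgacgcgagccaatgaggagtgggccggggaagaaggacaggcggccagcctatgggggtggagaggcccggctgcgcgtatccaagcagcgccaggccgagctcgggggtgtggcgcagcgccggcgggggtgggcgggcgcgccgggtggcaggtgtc
Of these 3 windows, that of the Bdnf start at 18225 holds 1 such half-site, whose first base lies 35 bases before the start. Of 33469 promoter windows of this length, 18.2% held TGACG or CGTCA and 1.59% held the whole palindrome TGACGTCA, so 1 half-site is a common match and is no evidence of binding. RefSeq windows were found for 6 of the 8 Bdnf starts, for Ntf3 and for Sort1. The start at 19319 is among those without one.

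Bdnf was estimated at a similar level in the 3 groups. VEH animals had 28.8 to 48.4 CPM (median 37.8), PB animals 21.5 to 45.2 CPM (median 35.4) and LEV animals 31.6 to 40.995 CPM (median 35.5). The groups overlapped, and the lowest value was that of PB animal 2. The means were 38.3 ± 5.29 CPM (SD, n = 13) in VEH, 36.0 ± 6.33 CPM (SD, n = 14) in PB and 35.8 ± 2.56 CPM (SD, n = 14) in LEV. The log2 fold change was -0.09 (SE 0.07, 95% interval -0.23 to 0.05, adjusted p = 0.484, edgeR quasi-likelihood test) for PB against VEH and -0.10 (SE 0.07, 95% interval -0.24 to 0.04, adjusted p = 0.906, edgeR) for LEV against VEH. Neither passed the test, and both intervals lie inside the limit of a 25% rise, or the same fold down, that the study set for differential expression.

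The counts of Bdnf were spread over its starts in much the same way in each group. Over the 41 animals the start at 19319 bases, that of NM_001270630, took 35.6% ± 6.51 (SD) of the gene's estimated counts. The 3 transcripts that begin at 1202 bases together took 24.8% ± 5.84 (SD). The start at 18225, that of NM_001270633, took 21.0% ± 6.30 (SD), and the first start, that of NM_012513, took 12.6% ± 5.24 (SD). The start at 2338 took 4.86% ± 4.35 (SD), and the remaining 3 starts each averaged under 1%, with 0.806%, 0.149% and 0.123%. Those last 3, NM_001270638, NM_001270636 and NM_001270634, were the Bdnf transcripts that did not pass the filter.

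**Figure D1:**
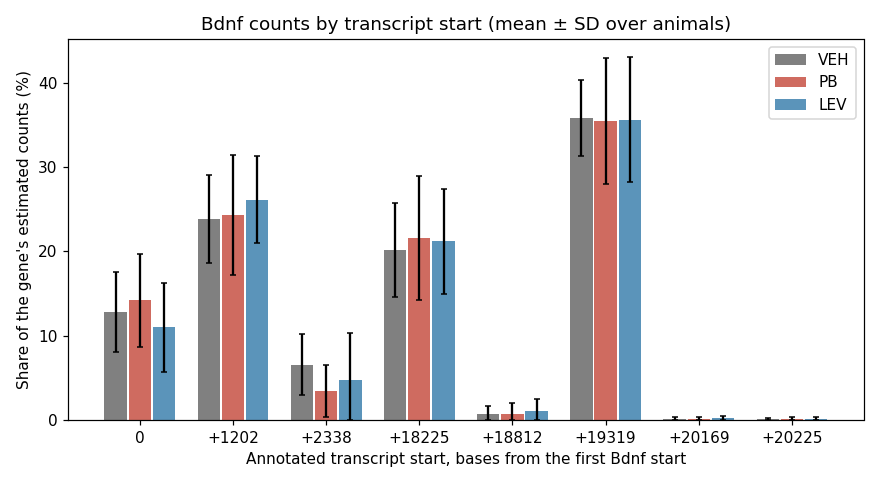
Share of the estimated counts of Bdnf (vertical axis, %) at each of its 8 annotated starts (horizontal axis, bases from the first start), as the mean over animals with SD, for 13 VEH, 14 PB and 14 LEV animals. The start at 19319 takes 35.8% in VEH, 35.5% in PB and 35.6% in LEV, and the error bars of the groups overlap at every start.

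No Bdnf transcript passed a treatment comparison. The share of NM_001270635, the start at 2338, was 3.48% ± 3.08 (SD, n = 14) in PB and 6.56% ± 3.61 (SD, n = 13) in VEH (permutation test within series, two-sided p = 0.0220, adjusted p = 0.686). Of 42 share tests, over 4 genes and 3 comparisons, this was the only one with an unadjusted p under 0.05. With the log2 odds of the share in place of the share, 3 of the 42 had one: NM_001270632 of Bdnf for PB against VEH (permutation p = 0.0233), NM_001270635 again (permutation p = 0.0460) and NM_001270656 of Ntrk3 for PB against LEV (permutation p = 0.0209). The share of NM_001270632, one of the transcripts that begin at 1202, was 5.57% ± 5.36 (SD, n = 14) in PB and 9.13% ± 4.09 (SD, n = 13) in VEH. No share passed after adjustment on either scale, where the lowest adjusted p was 0.686 and 0.490. The estimates of single transcripts were uneven. NM_001270635 had 0.0561 to 59.0 estimated counts per animal. Its coefficient of variation was 49.7% in VEH and 117% in LEV, against 13.8% and 7.14% for the gene sum. Reads in the shared exon were divided among transcripts by an estimation algorithm, so the transcript values are less certain than the sum.

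Ntf3, the ligand of TrkC, had 9.04 to 24.3 CPM in VEH animals (median 10.4), 9.66 to 19.0 CPM in PB animals (median 13.2) and 10.3 to 17.0 CPM in LEV animals (median 13.3). The groups overlapped, and VEH animal 9 stood above all others. PB gave a log2 fold change of 0.14 (SE 0.12, 95% interval -0.10 to 0.38, adjusted p = 0.541, edgeR) and LEV one of 0.15 (SE 0.12, 95% interval -0.08 to 0.39, adjusted p = 0.912, edgeR), each against VEH. Without VEH animal 9 these were 0.26 and 0.28, and neither passed. The transcript NM_001270869 took 74.2% ± 11.9 (SD, n = 13) of the gene's counts in VEH, 74.5% ± 11.2 (SD, n = 14) in PB and 75.4% ± 12.1 (SD, n = 14) in LEV. NM_001270868 was the Ntf3 transcript that did not pass the filter, with at most 5.41 estimated counts in any animal.

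Ntrk2, which encodes TrkB, had 539 to 666 CPM in VEH animals (median 617), 529 to 735 CPM in PB animals (median 642) and 458 to 703 CPM in LEV animals (median 621). The mean was 612.8 ± 32.8 CPM (SD, n = 13) in VEH, 633.1 ± 66.4 CPM (SD, n = 14) in PB and 588.7 ± 91.8 CPM (SD, n = 14) in LEV. The SD over a whole group includes the shift between the series. Within animals 1 to 6 the SD was 15.6 CPM in VEH, 37.8 CPM in PB and 40.3 CPM in LEV, and within animals 7 to 14 it was 44.0, 38.0 and 32.3 CPM in the same order. The log2 fold change was 0.03 (SE 0.05, adjusted p = 0.755, edgeR) for PB and -0.08 (SE 0.05, adjusted p = 0.840, edgeR) for LEV against VEH, and 0.11 (SE 0.04, p = 0.0158 in edgeR, adjusted p = 0.135) for PB against LEV. None passed, but the PB and LEV difference passed with a series-by-treatment term in the model (0.13, adjusted p = 0.0214, edgeR) and with both effects subtracted before DESeq2 (0.13, adjusted p = 0.00404). These fits called 4.92% and 8.85% of all genes. The second fit did not account for the effects subtracted beforehand, so its adjusted p can be too low. NM_001163168, which spans 130031 bases, took 79.8% ± 2.79 (SD, n = 13) of the counts in VEH, 80.8% ± 2.64 (SD, n = 14) in PB and 79.6% ± 3.17 (SD, n = 14) in LEV. The remainder went to NM_012731, which spans 309924 bases. The locus is known to give a full-length receptor and forms without the kinase, and the files do not say which these transcripts encode.

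Ntrk3, which encodes TrkC, had 25.9 to 48.7 CPM in VEH animals (median 41.3), 33.8 to 47.2 CPM in PB animals (median 39.8) and 28.1 to 48.8 CPM in LEV animals (median 38.0). The groups overlapped throughout. Its log2 fold change was -0.02 (SE 0.07, 95% interval -0.16 to 0.12, adjusted p = 0.897, edgeR) for PB and -0.06 (SE 0.07, 95% interval -0.20 to 0.07, adjusted p = 0.942, edgeR) for LEV. NM_019248 took 77.0% ± 9.32 (SD, n = 13) of its counts in VEH, 77.0% ± 3.77 (SD, n = 14) in PB and 69.8% ± 14.8 (SD, n = 14) in LEV, and no share differed after adjustment.

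Ngfr, which encodes p75, was at a low count, 24 to 68 counts per animal, and its estimates were the least precise. VEH animals had 1.84 to 4.80 CPM (median 3.94), PB animals 2.11 to 5.77 CPM (median 4.55) and LEV animals 2.50 to 5.78 CPM (median 3.92). Its log2 fold change was 0.14 (SE 0.15, 95% interval -0.16 to 0.44, adjusted p = 0.644, edgeR) for PB and 0.09 (SE 0.15, 95% interval -0.20 to 0.39, adjusted p = 0.971, edgeR) for LEV. The intervals of Ngfr and those of Ntf3 include a 25% rise, so a change of that size is not excluded for either gene.

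Sort1, which encodes the sorting receptor sortilin, was lower in PB-treated animals. VEH animals had 499 to 642 CPM (median 569), PB animals 421 to 598 CPM (median 527) and LEV animals 510 to 611 CPM (median 556). Of the 14 PB animals, 13 were below the VEH mean of their own series and 2 were below the lowest VEH animal. The mean was 573.4 ± 37.6 CPM (SD, n = 13) in VEH, 525.01 ± 42.8 CPM (SD, n = 14) in PB and 557.0 ± 30.8 CPM (SD, n = 14) in LEV. The log2 fold change for PB against VEH was -0.13 (SE 0.04, 95% interval -0.21 to -0.05, adjusted p = 0.0370, edgeR), a change of -8.50%. It was -0.04 (SE 0.04, adjusted p = 0.930, edgeR) for LEV against VEH and -0.09 (SE 0.04, p = 0.0293 in edgeR, adjusted p = 0.185) for PB against LEV.

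The Sort1 call was near the threshold. It missed it without the series term (-0.13, adjusted p = 0.0544, edgeR), with only the VEH and PB animals in the fit (-0.13, adjusted p = 0.0608, edgeR) and with a block for the animal number (-0.12, adjusted p = 0.0581, edgeR). Within the series it was -0.16 in animals 1 to 6 alone (adjusted p = 0.269, edgeR) and -0.11 in animals 7 to 14 alone (adjusted p = 0.202, edgeR), lower in both. It passed in 32 of 41 fits that left out 1 animal and missed the threshold without VEH animal 3, 5, 10 or 13 or PB animal 1, 2, 7, 9 or 10, with log2 fold changes from -0.13 to -0.11 and adjusted p up to 0.0750 (edgeR). Without PB animal 2, the lowest, it was -0.11 (adjusted p = 0.0524, edgeR).

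**Figure D2:**
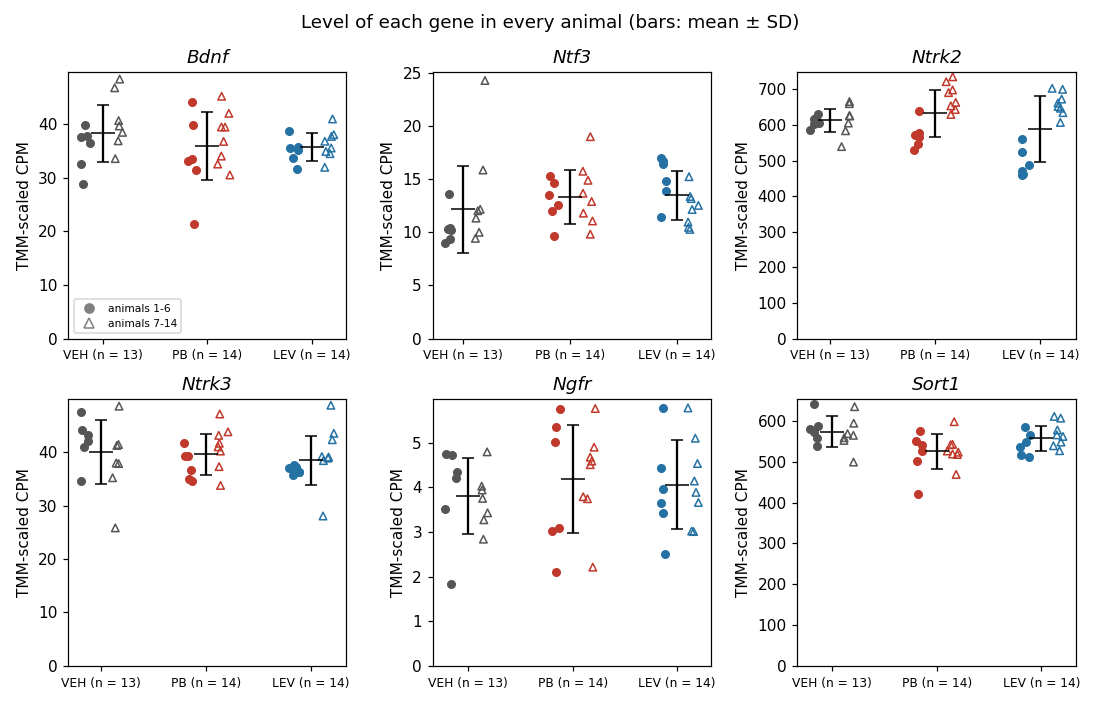
Level of the 6 genes (vertical axes, TMM-scaled CPM, from 0) in each of 13 VEH, 14 PB and 14 LEV animals, with filled circles for animals 1 to 6, open triangles for animals 7 to 14, and bars for the mean and SD. The groups overlap for every gene, the PB mean of Sort1 lies below the VEH mean, and LEV animals 1 to 6 lie apart from LEV animals 7 to 14 for Ntrk2.

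Counted together, 1 of the 6 genes passed the comparison of PB with VEH at an adjusted p under 0.05, and it was lower. Over all 12165 genes tested, 6.03% passed, and 3.61% passed and were lower, so 1 of 6 is no count from which the members could be set apart. Genes also had to change past the 25% fold limit to be called differentially expressed. Over all genes 0.674%, or 82 genes, did so, and no member did. That count was 53 without PB animal 7, 21 in animals 1 to 6 alone and 175 in animals 7 to 14 alone. By transcript, 1 of 17 passed, NM_031767 of Sort1, against 5.39% of 13062 transcripts tested. The median log2 fold change of the 6 genes was 0.005, beside 0.006 over all genes.

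For LEV against VEH none of the 6 genes and none of the 17 transcripts passed in edgeR, none of either had an unadjusted p under 0.05, and none of the genes passed in DESeq2. The share over all genes was 0.00822%, or 1 gene, with 0% past both limits (157 genes in animals 1 to 6 alone), and over all transcripts it was 0.00766%. For PB against LEV none of the 6 genes passed in edgeR or DESeq2, and 2 had an unadjusted p under 0.05, Ntrk2 and Sort1, as 20.6% of all genes did. Over all genes 4.79% passed, and 0.608% passed with a change past the fold limit. None of the 17 transcripts passed, 2 had an unadjusted p under 0.05, and 4.45% of all transcripts passed. The 3 comparisons share animals, so they are not independent of each other.

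**Figure D3:**
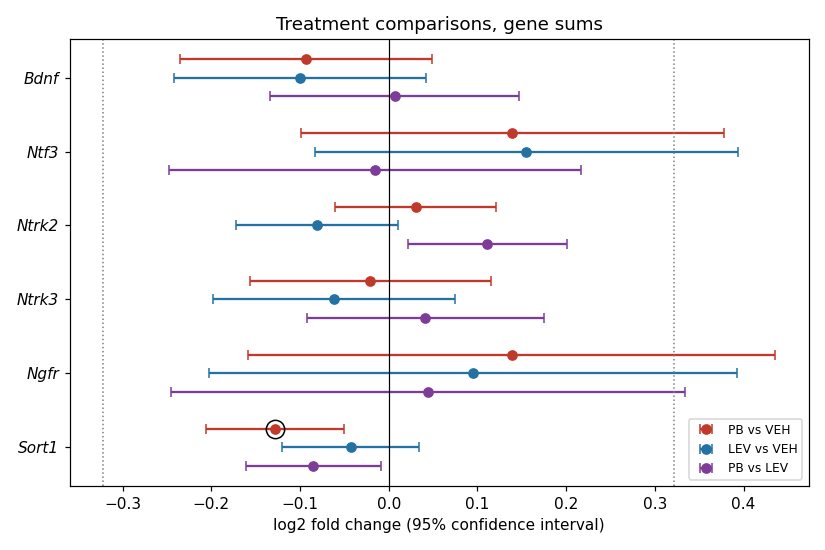
Log2 fold change of each gene (horizontal axis) with its 95% confidence interval for PB against VEH, LEV against VEH and PB against LEV, from edgeR on gene sums. Dotted lines mark the fold limit, a 25% rise and the same fold down, and the ring marks the estimate with an adjusted p under 0.05, that of Sort1 for PB against VEH at -0.13.

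The response of Ntrk2 to LEV differed between the series. In animals 1 to 6, VEH had 586 to 630 CPM (median 612) and LEV had 458 to 560.2 CPM (median 479). All 6 LEV animals of this series were below all 6 VEH animals. In animals 7 to 14, VEH had 539 to 666 CPM (median 625) and LEV had 607 to 703 CPM (median 657), which overlapped. The log2 fold change was -0.30 (SE 0.05) in the first series and 0.10 (SE 0.05) in the second, and the difference between them was 0.41 (SE 0.07, p = 4.94e-07 in edgeR, adjusted p = 0.000751). It passed for 0.855% of all genes, and by p Ntrk2 stood at rank 8 of 12165. Both transcripts had lower means in LEV than in VEH in the first series, a difference that was not tested by transcript: NM_001163168 had 379 ± 31.6 CPM against 473.1 ± 18.0 CPM (SD, n = 6 each), and NM_012731 had 114 ± 16.3 CPM against 137 ± 5.58 CPM (SD, n = 6 each).

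The difference passed in all 41 fits that left out 1 animal, with values from 0.38 to 0.45. It did not pass when the excluded VEH animal, which belongs to the second series, was put back (0.28, adjusted p = 0.473, edgeR). Astrocytes express Ntrk2, and the summed level of 9 astrocyte marker genes moved with it. In animals 1 to 6 this sum was 3876 to 4550.5 CPM in VEH and 3361 to 3781 CPM in LEV, and in animals 7 to 14 it was 4305 to 4838 CPM in VEH and 4152 to 4686 CPM in LEV. All 9 markers had a positive difference between the series, and 2 passed, the glutamate transporters Slc1a2 (0.90, adjusted p = 0.00587, edgeR) and Slc1a3 (0.28, adjusted p = 0.00272, edgeR). The shift was uneven, and it was near 0 for Aldh1l1 (0.02, SE 0.16), Aldoc (0.02, SE 0.07) and S100b (0.06, SE 0.07). The part of astrocyte content in the Ntrk2 result was not tested. In bulk tissue fewer cells of a type and less RNA per cell cannot be told apart.

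For PB against VEH the series difference of Ntrk2 was 0.24 (SE 0.07, adjusted p = 0.142, edgeR), from -0.09 in animals 1 to 6 to 0.14 in animals 7 to 14. No member passed this test for PB, where 0.0822% of all genes did. An unadjusted p under 0.05 was found for 1 of the 6, and for 1356 of all 12165 genes. Ntf3 moved the other way after LEV, with a log2 fold change of 0.52 (SE 0.16) in animals 1 to 6 and -0.14 (SE 0.15) in animals 7 to 14, a difference that did not pass (-0.67, SE 0.22, adjusted p = 0.147, edgeR). In animals 1 to 6 LEV had 11.5 to 17.0 CPM of Ntf3 and VEH 9.04 to 13.6 CPM, which overlapped, and the comparison passed in these animals alone (adjusted p = 0.0190, edgeR), past the fold limit, in a fit where 2.92% of all genes passed. For Bdnf, Ntrk3, Ngfr and Sort1 the series difference after LEV had adjusted p from 0.409 to 0.896 (edgeR).

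**Figure D4:**
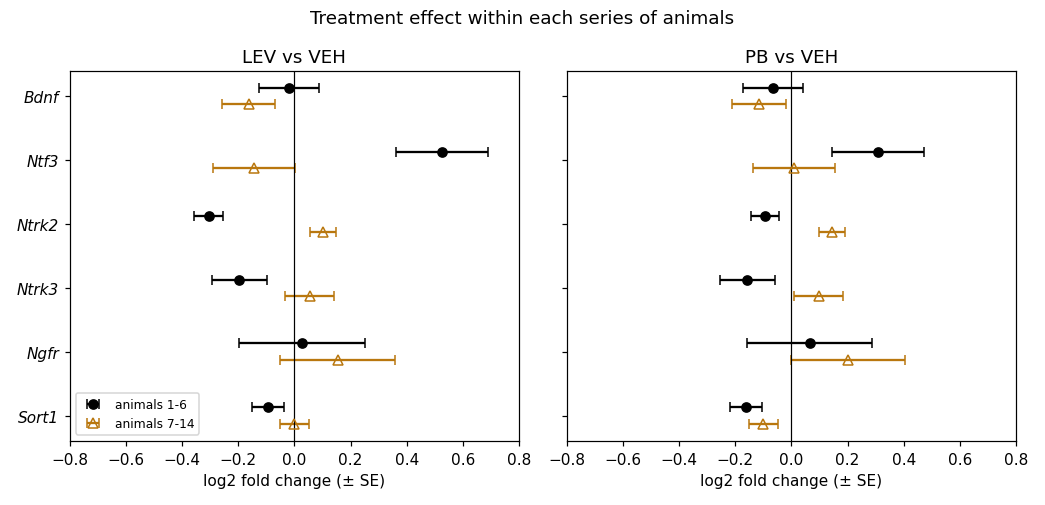
Log2 fold change with its SE (horizontal axes) of each gene for LEV against VEH (left) and PB against VEH (right), separately for animals 1 to 6 (filled circles) and animals 7 to 14 (open triangles). For Ntrk2 after LEV the estimates are -0.30 and 0.10 and lie on opposite sides of 0.

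Some members varied together among animals of the same group and series. With the group-by-series means removed, 2 of 15 pairs passed after adjustment over the pairs. The share of pairs of other genes that would pass was not computed, so this count does not set the members apart. Bdnf and Sort1 rose and fell together (Pearson r = 0.669, permutation p = 0.00017, adjusted p = 0.00255; Spearman rho = 0.540, adjusted permutation p = 0.0127; n = 41). Without the 2 animals farthest from the median of Bdnf, PB animals 2 and 5, r was 0.496, and within the series it was 0.837 and 0.456. Ntf3 and Sort1 moved in opposite directions (r = -0.514, permutation p = 0.00161, adjusted p = 0.0121; rho = -0.452, adjusted permutation p = 0.0401). Without VEH animal 9 and PB animal 9 the r was -0.446, and within the series it was -0.660 and -0.461. The pairs of each ligand with its main Trk receptor did not pass, and their r differed in sign between the series. For Bdnf and Ntrk2 r was -0.141 (adjusted permutation p = 0.484), with -0.552 in animals 1 to 6 and 0.306 in animals 7 to 14. For Ntf3 and Ntrk3 it was -0.354 (adjusted permutation p = 0.155), with 0.0946 and -0.465 in the same order.

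**Figure D5:**
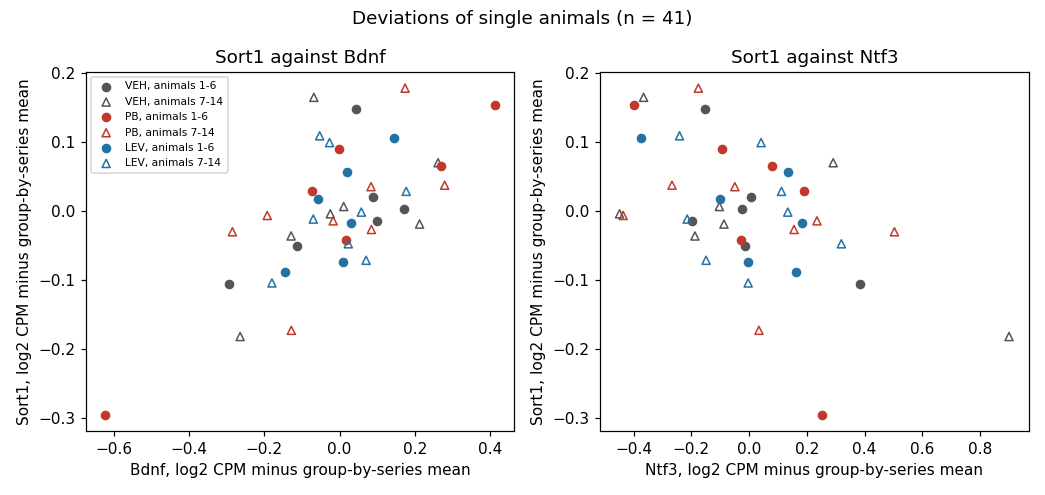
Deviation of Sort1 (vertical axes) against that of Bdnf (left) and Ntf3 (right), in log2 CPM after removal of the mean of each group and series, for 41 animals coloured by group. Sort1 rises with Bdnf (r = 0.669), with PB animal 2 at the lower left, and falls with Ntf3 (r = -0.514), with VEH animal 9 at the far right.

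By Pearson r over the same 41 animals, the genes nearest to Sort1 among 10388 with a mean of at least 50 counts were Nsf, which takes part in vesicle fusion (0.912), Bsn, a scaffold of the presynaptic active zone (0.841), and Syn2, a synaptic vesicle protein (0.832). The genes nearest to Bdnf included Gpr158 (0.771) and C1ql2 (0.717). For Ntf3 they were Plekho1 (0.713), Igsf9 (0.701) and Ccni (0.699). For Ntrk2 they were Lrp6 (0.733), Rev3l (0.726) and Macf1 (0.721), and for Ntrk3 Spock1 (0.771), Ppm1e (0.768) and Kcnma1 (0.766). Ngfr had weaker neighbours, led by Ppt2 (0.598). These values describe the 41 libraries and were chosen as the highest of many.

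Among 16 tested genes that cut, sort or secrete the precursors, 2 fell after PB and none rose, beside 6.03% of all genes that passed and 3.61% that passed and were lower. These were Serpini1, or neuroserpin, an inhibitor of tissue plasminogen activator (-0.17, SE 0.03, adjusted p = 0.00260, edgeR), and Sorcs2, a receptor of the sortilin family (-0.13, SE 0.03, adjusted p = 0.0119, edgeR). The median of this list was 0.01. None of 16 coreceptors and adaptors of p75 passed in edgeR, and 2 had an unadjusted p under 0.05, as 21.2% of all genes did.

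Among 54 tested adaptors, kinases and scaffolds downstream of Trk receptors, 2 rose and 4 fell after PB. Plcg1, the phospholipase C that binds Trk receptors, rose by 0.19 (SE 0.03, adjusted p = 0.000857, edgeR), and the docking protein Gab1 rose by 0.14 (SE 0.04, adjusted p = 0.0139, edgeR). Map2k1, the kinase MEK1, changed by -0.18 (SE 0.04, adjusted p = 0.00940, edgeR). Camk2a changed by -0.26 (SE 0.08, adjusted p = 0.0335, edgeR) and Camk2b by -0.12 (SE 0.04, adjusted p = 0.0345, edgeR), both subunits of a calcium-dependent kinase of synapses. These are log2 fold changes, none of those named reached the fold limit, and the median of the list was 0.02. The count of 6 of 54 stands beside 6.03% of all genes.

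For PB against LEV, 3 of the 54 were higher and 1 was lower, beside 4.79% of all genes. Gab1 (0.14, adjusted p = 0.0180) and Plcg1 (0.13, adjusted p = 0.0178) were among the higher and Map2k1 (-0.20, adjusted p = 0.00397) was lower in edgeR. Serpini1 was lower too (-0.14, adjusted p = 0.0102, edgeR). For LEV against VEH none of these genes passed in edgeR, and the unadjusted p was under 0.05 for 2 of the 16 processing genes, none of the 16 p75 partners and 3 of the 54 Trk partners, beside 6.03% of all genes.

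Of 17 activity and CREB target genes, which neurons switch on when they fire, 1 rose in PB against VEH, Nr4a2 (0.39, adjusted p = 0.0466, edgeR). That comparison called 6.03% of all genes. None passed for LEV against VEH in edgeR, but 7 of the 17 had an unadjusted p under 0.05, where 6.03% of all genes did. Of these, 6 were higher in LEV (Npas4 at 0.61, Fos at 0.46, Nr4a2 at 0.25, Arc at 0.25, Nr4a1 at 0.23 and Egr1 at 0.17) and Egr3 was lower (-0.13). Their lowest adjusted p was 0.216 (edgeR), and the median of the list was 0.13, beside 0.000998 over all genes. Bdnf, itself a target of CREB, was at -0.10 in that comparison. The study listed Fos and Npas4 among the transcripts raised by LEV, from DESeq2 after removal of batch and batch-by-treatment effects, a different model from the one used here. For PB against LEV, 1 of the 17 was lower, Arc (-0.27, adjusted p = 0.0439, edgeR), and 1 was higher, Egr3 (0.21, adjusted p = 0.0359, edgeR). That comparison called 4.79% of all genes. Against VEH, Arc was at -0.02 in PB and 0.25 in LEV, and Egr3 at 0.07 in PB and -0.13 in LEV, none of which passed.

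Markers of cell types moved with the comparison of PB with VEH, in which 6.03% of all genes passed. After PB, 4 of 11 interneuron markers were lower (Sst, Pvalb, Slc32a1 and Vip), with a summed level of 743 to 1028 CPM in PB and 770.4 to 1099.7 CPM in VEH. Of 12 pyramidal cell markers 2 were lower (Fibcd1 and Rgs14), with sums of 1351 to 1557 CPM in PB and 1451 to 1670 CPM in VEH. Of 9 astrocyte markers 1 was higher (Gfap) and 2 were lower (Aldoc and Slc1a3). Of 12 markers of oligodendrocytes and their precursors 1 was lower, the myelin gene Opalin (-1.39, adjusted p = 0.0298, edgeR). None of the dentate, microglial, endothelial, meningeal, ependymal, choroid plexus or red blood cell markers passed in edgeR. Still, all 12 choroid plexus markers (median 0.57) and all 5 ependymal markers (median 0.454) had positive log2 fold changes after PB. Of 7 red blood cell markers 6 were negative (median -0.429). For LEV against VEH the medians in the same order were 0.665, 0.549 and -0.294.

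Some markers of tissue outside the hippocampus also passed. Of 5 tested skeletal muscle markers 4 were lower after PB, Atp2a1 (-2.61), Myh4 (-2.19), Tnnt3 (-1.81) and Acta1 (-0.44), with adjusted p up to 0.00844 (edgeR), and the list's median was -1.81. Their summed level was low, 10.6 to 17.4 CPM in PB and 11.6 to 40.1 CPM in VEH, which overlapped. Of 5 thalamus markers 2 were higher, Prkcd (0.35) and Tcf7l2 (0.35), with summed levels of 116 to 145 CPM in PB and 110.2 to 140.5 CPM in VEH. The list as a whole had no shift, with 3 positive and 2 negative log2 fold changes and a median of 0.005, beside 0.006 over all genes. The sum of 12 choroid plexus markers, tissue that can come along with the hippocampus, ran from 28.4 to 4973 CPM in VEH and from 29.4 to 7770 CPM in PB, and with it as a covariate Sort1 was at -0.13 (adjusted p = 0.0399, edgeR). The part of the neuronal, muscle and thalamus markers in the Sort1 result was not tested.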

How the data were processed

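Hippocampal RNA of 42 male rat pups was sequenced, 1 library per animal. According to the study's methods, the authors aligned reads to rn6 with STAR 2.7.3a and estimated counts per RefSeq transcript by expectation maximization in Partek. The deposited values are these estimated counts, with no normalization or batch removal (13.4% are not whole). A second deposited table, which holds the authors' own DESeq2 comparisons, was not used.

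Estimated counts were rounded, summed per gene symbol and tested in edgeR 4.0.16 (R 4.3.3) with TMM, filterByExpr by group, and a model of treatment plus series, with Benjamini-Hochberg adjustment over all features tested. CPM are scaled by TMM. Fold changes are on the log2 scale. An adjusted p under 0.05 counted as passing, and differential expression also needed a 25% rise or the same fold down, after the study's methods. Shares and correlations were tested with 100000 permutations within series, or within group and series. Half-sites were searched on both strands.

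All members, listed genes that passed, and the 3 nearest genes of each member were named, except a few that are not reported here. Members, lists and tests were chosen with earlier results of these data known. Pups came from several litters, 1 per litter and group, over 2 orders, with treatments balanced within litter. The labels do not tie animals to an order or a litter. The main fit therefore treated animals as independent, and its SE and p leave out any pairing by litter. Levels were not compared between genes, as transcript lengths were not used here. Alternatives were DESeq2 1.42.0, other filters, scaling, batch handling and samples, and each animal left out. The alternatives of the series difference were chosen after seeing the data.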

Additional observations from a re-analysis of the deposited data

Results flagged for a closer look

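The difference between the series in the response of Ntrk2 to LEV stands out because the difference itself passed its test, at 0.41 (SE 0.07, adjusted p = 0.000751, edgeR). The log2 fold change was below 0 in animals 1 to 6, where it passed alone (-0.31, adjusted p = 0.00146, edgeR), and did not pass in animals 7 to 14 alone (0.10, adjusted p = 0.945, edgeR), where the groups overlapped. With the excluded VEH animal put back, the difference was 0.28 and did not pass (adjusted p = 0.473, edgeR).

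The VEH animal that its label marks as excluded entered no comparison of the main fits. Its coverage, by the study's account, lay outside the range of the other samples. Scaled together with the other libraries, it had 1081 CPM of Ntrk2, where the 13 VEH animals had at most 663 CPM. It had 6.10 CPM of Ngfr, above their highest of 4.80 CPM, and 709 CPM of Sort1, above their highest of 644 CPM. Its Bdnf, 21.5 CPM, and its Ntf3, 7.47 CPM, were below all 13, whose lowest values were 28.7 CPM and 9.02 CPM. Its Ntrk3, 43.7 CPM, lay within their range.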

How the results depend on the processing

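Of 249 refits of a member's log2 fold change other than leave-one-out, 229 kept their direction and call, and most of these were called in neither fit. The only result called in the main fit, Sort1 for PB against VEH, kept its call in 9 of 14 refits. Sort1 for PB against VEH fell short without the series term (-0.13, adjusted p = 0.0544), with only the 2 groups (-0.13, 0.0608), in each series alone, and with the animal number as a replicate block (-0.12, 0.0581), so 0 members were called there. The block left 473 genes called for PB against VEH and 0 for LEV against VEH, and changed no other member call. Animals with the same number correlated at r over 0.1 in 4 of 13, 5 of 13 and 5 of 14 pairs over the 3 comparisons. Pairs with different numbers were not compared, so these values cannot decide whether the number marks a pairing. It was not used as one in the main fit. One member, Ntrk2, was called for PB against LEV with the series-by-treatment term and after subtraction with DESeq2, where 4.92% and 8.85% of all genes were called, and 2 (Ntf3 and Ntrk2) for LEV against VEH in animals 1 to 6, where 2.92% were. Some directions turned. In animals 1 to 6 alone, Ntrk2 was -0.094 for PB against VEH and Bdnf -0.043 for PB against LEV. In animals 7 to 14 alone, Ntrk3 was 0.090 (PB) and 0.056 (LEV), Ntf3 -0.14, Ntrk2 0.10 and Sort1 0.0013 for LEV against VEH, and Ntf3 0.14 for PB against LEV. Bdnf for PB against LEV was -0.0084 with the block and -0.0022 after subtraction, and Ntrk2 for PB against VEH was -0.039 with the excluded animal.

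Leaving out 1 animal, PB against LEV ran from -0.028 to 0.046 for Bdnf, -0.062 to 0.015 for Ntf3 and -0.0013 to 0.097 for Ngfr, and PB against VEH from -0.065 to 0.0051 for Ntrk3. Members called for PB against VEH ran from 0 to 1. All genes called ran from 446 to 940 for PB against VEH, 303 to 795 for PB against LEV (in both lowest without PB animal 7 and highest without PB animal 5) and 0 to 6 for LEV against VEH. Without LEV animal 2 there were 367 for PB against LEV.

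All genes called moved by over 1.5 times as follows. Without the series term there were 406 (PB against VEH), 0 (LEV against VEH) and 294 (PB against LEV). In animals 1 to 6 there were 80, 357 and 74, and in animals 7 to 14 there were 5 for LEV against VEH and 172 for PB against LEV. With the excluded animal there were 431, 0 and 181, and the member series difference count fell from 1 to 0. For LEV against VEH there were 2 without a filter, with a mean of 50 counts or with the choroid covariate, 11 with the series-by-treatment term, 0 with only the 2 groups, 5 in DESeq2 and 64 after subtraction, where PB against LEV had 1077. Of the correlations, 4 passed with the first principal component removed, 2 on raw log2 CPM in animals 1 to 6 and 0 in animals 7 to 14. Genes past both limits ran from 53 to 122 for PB against VEH and from 41 to 105 for PB against LEV with 1 animal left out, lowest without PB animal 7 in both, and for PB against LEV there were 48 without PB animal 11 and 47 without LEV animal 2. The cause of these shifts was not tested. Ngfr had no value under the mean of 50 counts. Low counts limit Ngfr and single Bdnf and Ntf3 transcripts.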
